A study of Mus musculus with 6 samples.

Results

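The Dlk1-Dio3 region of mouse chromosome 12 codes for one of the largest clusters of miRNAs in mammals, and 56 of the 1982 rows of the count table were mature miRNAs of this region. They were taken by name and not by their values, and they came from 43 hairpins. Serum exosomes, membrane vesicles shed into the circulation, had been pelleted by centrifugation from 6 male C57BL/6 mice aged 3 months, and the small RNA of each mouse was sequenced as its own library. Mice 1, 2 and 3 were sham mice, with needles placed near the acupuncture points of the hindlimb and wired to the stimulator without current. Mice 4, 5 and 6 had Acu/LFES, acupuncture with low frequency electrical stimulation, in a single session of 30 min. The strain, sex, age and exosome preparation were the same in both groups.

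The region is imprinted: the protein-coding genes Dlk1, Rtl1 and Dio3 are read from the chromosome inherited from the father, while the miRNAs and the noncoding RNAs Meg3, Rian and Mirg are read from the chromosome inherited from the mother. The miRNAs are cut from long transcripts, so that many of them share a precursor, and a hairpin can give a mature miRNA from its 5p arm, its 3p arm or both. They are best known from the embryo, the placenta and the brain, where miR-134 limits the growth of dendritic spines and where the cluster from miR-379 to miR-410 is induced by neuronal activity, and several of them have been studied in skeletal muscle.

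Of the 56 members, 44 had at least 1 count in at least 1 mouse (78.6%), against 954 of the 1982 rows of the whole table (48.1%). The region was a small part of the exosomal miRNA, with 5769 counts over the 6 mice. The number of members seen in a mouse was higher in each Acu/LFES mouse than in each sham mouse, as was the number of all miRNAs seen. The summed level of the members overlapped between the groups. miR-434-3p was the member with the most counts, and it lay above the sham mice in every Acu/LFES mouse, as did 8 members with fewer counts. Together these were 20.5% of the 44 members with a count, against 6.29% of the 954 miRNAs with a count. None of the 17 members with enough counts to be tested passed the adjusted threshold of 0.05 in edgeR, and miR-434-3p passed it in DESeq2.

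The mature sequences of the members on which the results turn are printed 5′ to 3′, with bases 2 to 8, the seed that pairs with target mRNAs, in capitals. They are from RefSeq on GRCm38.p6, which matched 53 of the 56 members by name. The first set is the miRNAs of the antisense strand of Rtl1, where miR-434-3p lies.
miR-431-5p: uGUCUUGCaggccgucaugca
miR-433-3p: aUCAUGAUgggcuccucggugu
miR-127-3p: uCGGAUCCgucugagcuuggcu
miR-434-5p: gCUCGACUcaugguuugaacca
miR-434-3p: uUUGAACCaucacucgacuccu
miR-136-5p: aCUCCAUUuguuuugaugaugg

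The second set is the members of the miR-379 to miR-410 stretch that were seen mostly in Acu/LFES mice, with the most counted miRNA of that stretch, miR-382-5p, and with miR-300-3p because it resembles miR-381-3p.
miR-411-5p: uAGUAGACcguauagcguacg
miR-299a-5p: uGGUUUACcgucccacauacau
miR-299b-5p: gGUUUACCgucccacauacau
miR-323-3p: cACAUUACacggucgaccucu
miR-300-3p: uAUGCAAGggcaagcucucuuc
miR-381-3p: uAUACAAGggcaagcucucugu
miR-154-5p: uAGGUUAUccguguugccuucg
miR-382-5p: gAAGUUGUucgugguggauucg

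The seeds of these 14 miRNAs all differed from each other. Among the 53 matched members, 1 seed was held by more than 1 member, AUGUAAC, which miR-379-3p and miR-411-3p share. miR-299a-5p and miR-299b-5p differ by the first base only and lie on opposite strands of the same hairpin site, so that a read without its first base could be counted on either, and their counts are not independent. miR-300-3p and miR-381-3p differ at 3 bases, as do miR-376a-3p and miR-376b-3p, while miR-379-3p and miR-411-3p differ at 2. Every other miRNA with a RefSeq sequence differed from each matched member by more than 3 bases.

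By position the hairpins fell into 3 sub-clusters, split where neighbours lay more than 10 kb apart. The first, from miR-673 to miR-136, held 15 members on 10 hairpins at chr12:109571990-109595388. In it, miR-431, miR-433, miR-127, miR-434 and miR-136 lay within an exon of Rtl1 (chr12:109589193-109600330) on the strand opposite to that gene, and the others lay between annotated genes downstream of Meg3. The second held miR-341 and miR-370, each in an intron of Rian (chr12:109603940-109661716). The third, from miR-379 to miR-410, held 39 members on 31 hairpins at chr12:109709060-109743795, upstream of and within the noncoding gene Mirg (chr12:109729764-109749460). There, miR-382, miR-134, miR-668, miR-485, miR-377, miR-369 and miR-410 overlapped exons of Mirg and miR-154, miR-541 and miR-409 its introns. Gene positions are from GENCODE M21 on GRCm38.

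The libraries differed in depth and in make-up. Totals ranged from 391708 to 658833 counts in sham mice and from 517421 to 1504137 in Acu/LFES mice. A pair of red cell miRNAs, miR-486a-5p and miR-486b-5p, had the same edgeR log2 fold change (-0.656) and standard error (0.638). The same reads thus appear to be entered on both rows, and are then counted on each in the totals and shares. Together the pair took between 61.7% and 74.0% of the deposited counts in 5 mice and 29.2% in Acu/LFES mouse 6, whose library stood apart in this. Levels are therefore given as normalized CPM, in which the total of a library is multiplied by the TMM scaling factor of edgeR before its counts are expressed as counts per 1000000. The factor was 2.12 in Acu/LFES mouse 6 and between 0.65 and 1.11 in the others. A count of 0 allowed a level of up to 3 counts, which was 4.33, 7.01 and 9.93 CPM for mice 1, 2 and 3 and 1.80, 6.25 and 2.74 CPM for mice 4, 5 and 6. The reads carried no molecular identifiers, so that these limits and the intervals on pooled counts cover counting error only.

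More members were detected in each Acu/LFES mouse than in each sham mouse. As deposited, sham mice 1, 2 and 3 had a count for 28, 14 and 17 members and mice 4, 5 and 6, given Acu/LFES, for 38, 31 and 29. With every library thinned to 391708 counts, the smallest total, the expected numbers were 26.0, 14.0 and 17 for sham and 34.0, 29.4 and 28.8 for Acu/LFES. The groups did not overlap, although sham mouse 1 lay closer to the Acu/LFES mice than to the other sham mice. The means were 19.0 and 30.7 members, a ratio of 1.62 and a difference of 11.7, which was 12.7 without Acu/LFES mouse 6.

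The same count over all rows also did not overlap between the groups, with means of 370 miRNAs in sham and 502 in Acu/LFES mice, a ratio of 1.36. With libraries made equal outside the miR-486 pair, at 112980 counts, the means were 18.6 and 30.1 members, a ratio of 1.62, against a ratio of 1.30 over all rows. With detection set at more than 3 counts and totals equal, they were 15.3 and 24.6 members. The ratio of the members was thus above that of the table in each setting, and the difference between these ratios was not tested.

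The additional members lay mostly in the miR-379 to miR-410 stretch. At equal totals it gave 16.4, 7.99 and 8 detected members in sham mice, against 21.6, 21.4 and 18.0 with Acu/LFES, with means of 10.8 and 20.4. The miR-673 to miR-136 stretch gave 9.60, 6.00 and 8 members in the sham group and 11.4, 8 and 10.8 after Acu/LFES, which overlapped.

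**Figure D1:**
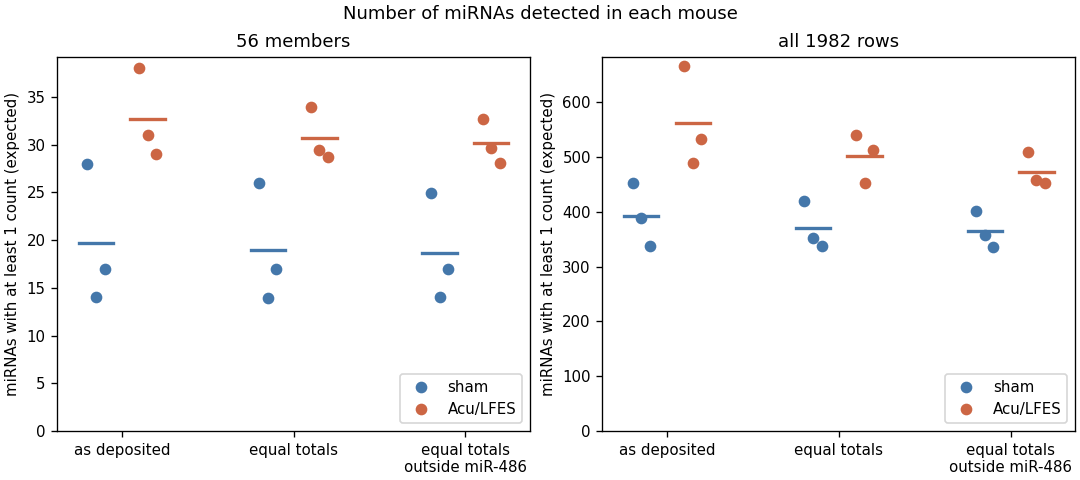
Number of members (left) and of all miRNAs in the table (right) with at least 1 count in each mouse, as deposited and after thinning to equal totals, with a point per mouse and a line at the mean of 3 mice. At equal totals the sham mice lie at 26.0, 14.0 and 17 members and the Acu/LFES mice at 34.0, 29.4 and 28.8, and the numbers over all miRNAs are also higher in the Acu/LFES mice.

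Only 7 members had a count in all 6 mice, namely miR-434-3p, miR-382-5p, miR-127-3p, miR-136-5p, miR-379-5p, miR-337-5p and miR-433-3p. These 7 were the only members present in every sham mouse, while 24 members were present in every Acu/LFES mouse. More than 3 counts were reached in every sham mouse by 6 members and in every Acu/LFES mouse by 21. A further 7 members were seen in 1 mouse only. Counts were restricted to Acu/LFES mice for 11 members, and to sham mice for 1 member, miR-679-5p, which had 1 count. Of the 11, all but miR-323-3p, miR-299a-5p and miR-299b-5p had at most 11 counts in any mouse. Among them, miR-665-3p, miR-494-3p, miR-495-3p, miR-667-3p and miR-369-3p had counts in Acu/LFES mouse 4 only, the library with the largest total. These numbers are at deposited depth, at which the mean number of all miRNAs with a count was also higher, 393 in sham and 563 in Acu/LFES mice. Shares over all rows are not given for them, so that they are not read as particular to the members. Not detected in any mouse were 12 members: miR-493-3p, miR-127-5p, miR-370-3p, miR-379-3p, miR-329-3p, miR-654-3p, miR-376b-3p, miR-376a-3p, miR-539-5p, miR-154-3p, miR-377-3p and miR-409-5p. For miR-493, miR-127, miR-379, miR-154 and miR-409 the undetected member is the arm opposite to one that was detected.

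**Figure D2:**
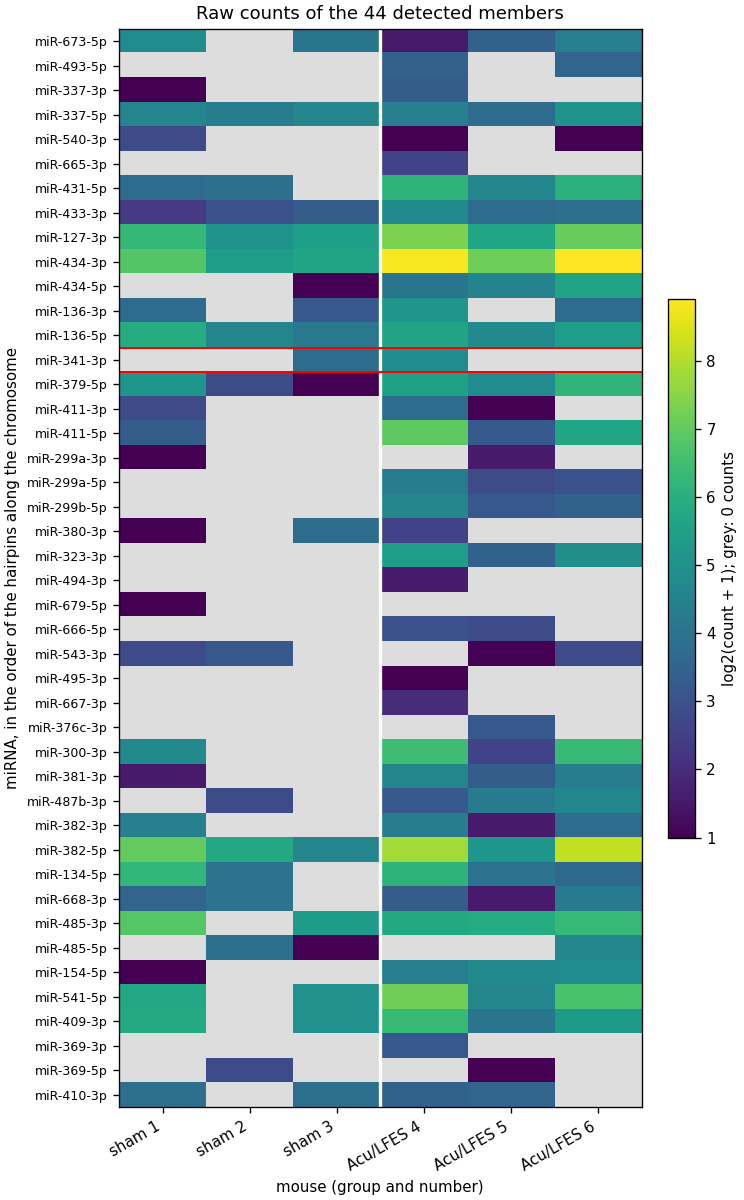
Raw counts, as log2(count + 1), of the 44 members with a count (rows, in chromosomal order, red lines between the 3 sub-clusters) in each mouse (columns, sham left of the white line), with 0 counts in grey. The sham columns hold more grey, with 28, 14 and 17 members detected against 38, 31 and 29, and miR-434-3p, miR-382-5p and miR-127-3p are filled in every mouse.

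In 6 members every Acu/LFES mouse had more than 3 counts and every sham mouse had 3 or fewer. Over the 954 miRNAs with a count this held for 19 (1.99%), these 6 included, against 13.6% of the 44 members with a count, and the opposite pattern held for 0 of the 954. The cut-off was set on deposited counts. Acu/LFES mice 4 and 6 had larger effective library sizes than any sham mouse, which left less room for the opposite pattern. The share of the members also counts miR-299a-5p and miR-299b-5p separately. The 6 were miR-434-5p on the antisense strand of Rtl1 and miR-299a-5p, miR-299b-5p, miR-323-3p, miR-381-3p and miR-154-5p in the miR-379 to miR-410 stretch. Their counts were low throughout, at most 48 in a mouse.

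mmu-miR-323-3p had 0 counts in each sham mouse and 41, 10 and 29 in the Acu/LFES mice, at 24.0 ± 2.89 CPM (SD, n = 3), at least 2.41-fold above the highest level that 0 counts allow in a sham library, 9.93 CPM. It was the most even of the 6 across the Acu/LFES mice. miR-299b-5p had 0 counts in each sham mouse and 23, 8 and 10 in the Acu/LFES mice, with a mean at least 1.33-fold above that limit. miR-299a-5p had 0 counts in each sham mouse and 19, 6 and 7 in the Acu/LFES mice, with a mean at least 1.02-fold above it. Acu/LFES mouse 6 lay below 9.93 CPM for both, at 9.14 CPM for miR-299b-5p and 6.40 CPM for miR-299a-5p. As their sequences differ by 1 base, both names may rest on the same reads.

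miR-434-5p had 0, 0 and 1 counts in sham mice, compared with 16, 22 and 48 after Acu/LFES. Summed over each group and set against the summed effective library sizes, its ratio was 37.7 (95% exact interval 6.59 to 1508). The wide interval came from the single sham count. miR-154-5p had 1, 0 and 0 counts in sham mice, against 20, 26 and 27 with Acu/LFES, a ratio of 32.0 (5.57 to 1282). miR-381-3p had 2, 0 and 0 counts in the sham group and 24, 9 and 19 after Acu/LFES, a ratio of 11.4 (3.00 to 96.7). The separation of the groups in these 6 follows from how they were picked.

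All of these 6 were removed by the default filter of edgeR, so that they had no test in that fit. With the filter left off, 6 of the 44 members with a count were higher at an unadjusted p under 0.05 (13.6%), against 39 of 954 miRNAs (4.09%), and 0 members were lower. They were miR-154-5p, miR-299b-5p, miR-323-3p, miR-411-5p, miR-434-3p and miR-434-5p. In that fit the smallest adjusted p of a member in edgeR was 0.427, so that 0 members passed.

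miR-411-5p, from the hairpin between miR-379 and miR-299a, was detected in 1 sham mouse. It had 9, 0 and 0 counts in sham mice, compared with 123, 8 and 50 after Acu/LFES, a pooled ratio of 8.82 (4.55 to 19.6). Its lowest Acu/LFES mouse had fewer raw counts than sham mouse 1 and lay above it in normalized CPM. In all, 9 of the 44 members with a count had every Acu/LFES mouse above every sham mouse (20.5%), against 60 of 954 miRNAs (6.29%). The other two were miR-434-3p and miR-431-5p. With mouse 6 left out it held for 10 of the 44 members (22.7%) and 107 of 954 miRNAs (11.2%).

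mmu-miR-434-3p had 111, 42 and 48 counts in sham mice 1, 2 and 3, and its Acu/LFES counts reached 480, the most of any member in a mouse. In normalized CPM it stood at 160, 98.2 and 159 in the sham group and at 272, 296 and 439 in the treated group. Every Acu/LFES mouse was above every sham mouse, with means of 139 ± 35.5 and 335 ± 90.4 CPM (SD, n = 3 each). The log2 fold change in edgeR was 1.27 with a standard error of 0.38, and the adjusted p over the 259 miRNAs tested was 0.269 in edgeR's quasi-likelihood test. DESeq2 on the same 259 miRNAs gave a log2 fold change of 1.24 and an adjusted p of 0.0402. DESeq2 left part of the 259 without an adjusted p, so that the adjusted values of the tools are not over the same miRNAs.

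miR-434 holds 22.1% of all member counts on its 3p arm, so that the level of the stretch around it turns on this miRNA. Because a ratio of 2 miRNAs in the same library does not depend on the scaling, miR-434-3p was also set against 4 others, a comparison chosen after its values were seen. Against miR-127-3p, the next detected miRNA upstream, log2 of the count ratio was 0.55, 0.39 and 0.16 in sham mice, against 1.47, 1.51 and 1.84 with Acu/LFES. The groups did not overlap, and the means differed by 1.24 (exact two-sided permutation p = 0.1, the smallest that 3 against 3 mice can give; 0.2 adjusted over the 4 ratios).

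Against miR-16-5p, a miRNA abundant in blood cells, the log2 ratios did not overlap either, with means of -5.81 ± 0.49 in sham and -4.66 ± 0.58 in Acu/LFES mice (exact permutation p = 0.1, n = 3 each). Against miR-103-3p and miR-382-5p they overlapped, with differences of 1.40 and 1.08 (exact permutation p = 0.2 and 0.3). Since miR-434-3p is the numerator of all 4 ratios, they do not bear on it independently.

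The other miRNAs of the Rtl1 antisense group differed from miR-434-3p and among themselves in their values. mmu-miR-127-3p, which can pair perfectly with the Rtl1 mRNA on the other strand, had 76, 32 and 43 counts in the sham group and 163, 50 and 134 after Acu/LFES. Its means were 109 ± 33.8 and 108 ± 12.9 CPM, with a log2 fold change of -0.0073 and a standard error of 0.49 (edgeR adjusted p = 0.997). At this error a change of the size seen for miR-434-3p in miR-127-3p lay more than 2 standard errors away. miR-136-5p had 59, 23 and 17 counts in sham mice, compared with 48, 26 and 41 after Acu/LFES, a log2 fold change of -0.71 with a standard error of 0.68 (edgeR adjusted p = 0.799).

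miR-431-5p, known from muscle stem cells, had 13, 14 and 0 counts in sham mice, against 69, 24 and 67 with Acu/LFES. The groups did not overlap in normalized CPM, at 17.2 ± 16.4 and 50.9 ± 9.97, and the log2 fold change of 1.52 had a standard error of 1.04 (edgeR adjusted p = 0.761). miR-433-3p had 4, 7 and 9 counts in the sham group and 26, 13 and 14 after Acu/LFES, which overlapped in CPM, with a log2 fold change of 0.12. miR-136-3p had 13, 0 and 8 counts in sham mice, compared with 34, 0 and 13 after Acu/LFES, and each group thus held a mouse without it.

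Upstream of Rtl1, miR-337-5p was the 1 tested member with every Acu/LFES mouse below every sham mouse. Without sham mouse 2 this held for 5 of the 44 members with a count (11.4%), against 43 of 954 miRNAs (4.51%), where all mice gave 1 of 44 and 25 of 954 (2.62%). miR-337-5p had 23, 19 and 23 counts in sham mice, against 20, 13 and 32 with Acu/LFES, or 51.3 ± 22.3 and 22.8 ± 9.40 CPM. Its raw counts overlapped, so that the separation rests on the scaling. The log2 fold change was -1.17 with a standard error of 0.80 (edgeR adjusted p = 0.761). miR-673-5p had 28, 0 and 16 counts in the sham group and 2, 10 and 20 after Acu/LFES, with a log2 fold change of -1.24 and a standard error of 1.37.

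Between the sub-clusters, within Rian, miR-341-3p had 13 counts in sham mouse 3, 28 in Acu/LFES mouse 4 and 0 in the other mice. miR-370-3p was not detected.

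In the miR-379 to miR-410 stretch, mmu-miR-382-5p held the most counts, 757 over the 6 mice. It stood at 183, 126 and 76.2 CPM in sham mice and at 135.5, 72.9 and 267 CPM after Acu/LFES. Its means of 129 ± 53.7 and 158 ± 99.1 CPM differed by less than the spread between mice (log2 fold change 0.30, standard error 0.57, edgeR adjusted p = 0.924). miR-541-5p had 52, 0 and 31 counts in sham mice, compared with 146, 24 and 99 after Acu/LFES, with a log2 fold change of 0.37 and a standard error of 1.07. miR-485-3p had 113, 0 and 40 counts in sham mice, against 55, 57 and 78 with Acu/LFES, with a log2 fold change of -0.42 and a standard error of 1.12. Both were absent from sham mouse 2 only.

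The tested members with the largest positive fold change in this stretch were miR-300-3p and miR-379-5p. miR-300-3p had 26, 0 and 0 counts in the sham group and 87, 5 and 82 after Acu/LFES (log2 fold change 1.75, standard error 1.38). miR-379-5p had 35, 6 and 1 counts in sham mice, compared with 45, 27 and 72 after Acu/LFES (1.07, standard error 0.97). Each had sham mouse 1 above at least 1 Acu/LFES mouse. Without sham mouse 1 the log2 fold change of miR-379-5p was 2.49 (edgeR adjusted p = 0.249), and miR-300-3p had 0 counts in the sham mice that were left.

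The tested members of the stretch with negative values all lay within Mirg, as did miR-382-5p and miR-541-5p. Only miR-300-3p and miR-379-5p among its tested members lay outside Mirg, and the untested miR-154-5p lay within it. A link of position with direction was not tested. miR-134-5p, the regulator of dendritic spines, had 74, 15 and 0 counts in sham mice, against 69, 15 and 12 with Acu/LFES (log2 fold change -0.79, standard error 1.19). miR-409-3p had 56, 0 and 31 counts in the sham group and 79, 16 and 39 after Acu/LFES (-0.65, standard error 1.14). Both overlapped between the groups. miR-668-3p had 11, 15 and 0 counts in sham mice, compared with 9, 2 and 18 after Acu/LFES, with a log2 fold change of -0.96. miR-410-3p, at the far end of the cluster, had 14, 0 and 14 counts in sham mice, against 10, 11 and 0 with Acu/LFES, with a log2 fold change of -1.27. Of the untested members, miR-487b-3p had 0, 6 and 0 counts in the sham group and 8, 18 and 24 after Acu/LFES, which overlapped in CPM. In the other direction, miR-380-3p had 14 counts in sham and 5 in Acu/LFES mice, a pooled ratio of 0.157 (0.0442 to 0.460), and miR-543-3p had 14 and 7, with 13 of the miR-380-3p counts in sham mouse 3. In the miR-673 to miR-136 stretch, miR-540-3p had 6 counts in sham mouse 1 and 2 in Acu/LFES mice.

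**Figure D3:**
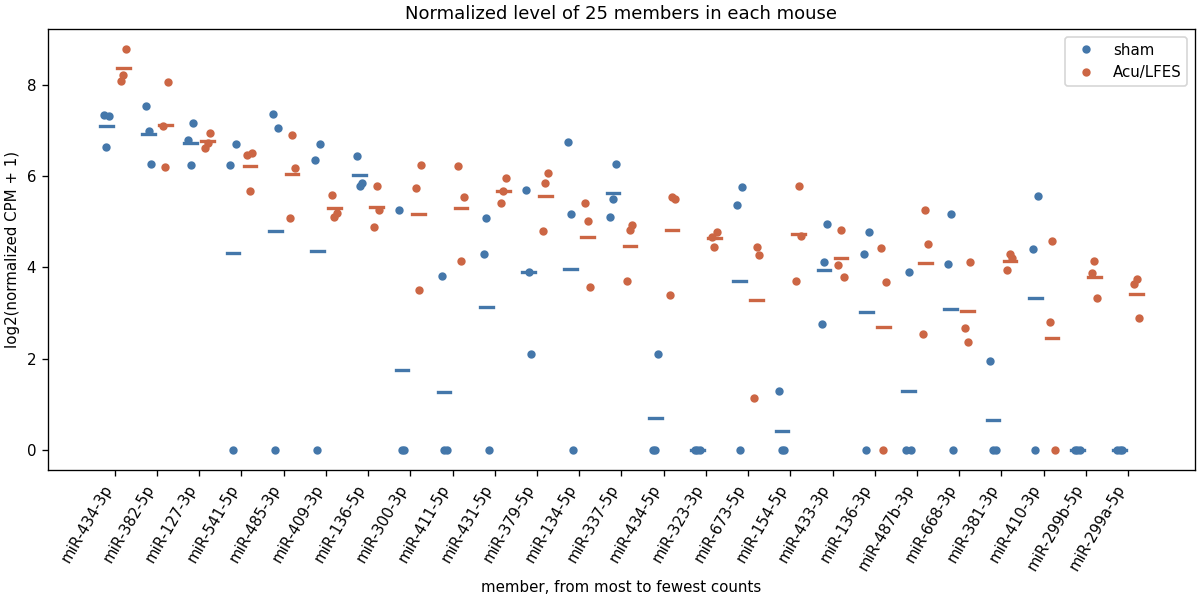
Normalized CPM of 25 members in each mouse on a log2(CPM + 1) scale, with a point per mouse and a line at the mean of the log2 values of each group of 3, ordered by total counts. The Acu/LFES points of miR-434-3p (272 to 439 CPM) lie above its sham points (98.2 to 160 CPM), those of miR-127-3p lie among them, and points at 0 are frequent in sham mice from miR-541-5p on.

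Over the 17 tested members, 7 had a positive and 10 a negative log2 fold change, and their median was -0.39, against 0.05 over all 259 miRNAs tested. With edgeR, 0 of the 17 passed an adjusted p of 0.05, as did 0 of the 259 (0%). At an unadjusted p under 0.05, 1 member was higher (miR-434-3p), against 15 of 259 (5.79%), and 0 were lower, against 8 of 259 (3.09%). By DESeq2, 1 member had an adjusted p under 0.05 and was higher, against 3 of 259 (1.16%). DESeq2 gave no adjusted p to part of the members and of the 259, so that these are not shares of the miRNAs it adjusted. Every Acu/LFES mouse lay above every sham mouse in 2 of the 17, against 23 of 259 (8.88%), and below in 1, against 21 of 259 (8.11%). The shares in edgeR and those without overlap were near those of all miRNAs tested. With 17 members each member called is a share of 5.88%.

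The tested and the detected members thus gave different pictures. The fit held the 17 members with enough counts, all of which also had a count in sham mice. It left out 27 of the 44 members with a count, among them the 6 seen almost only in Acu/LFES mice. Others left out had counts in sham mice too, such as miR-382-3p with 21.

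**Figure D4:**
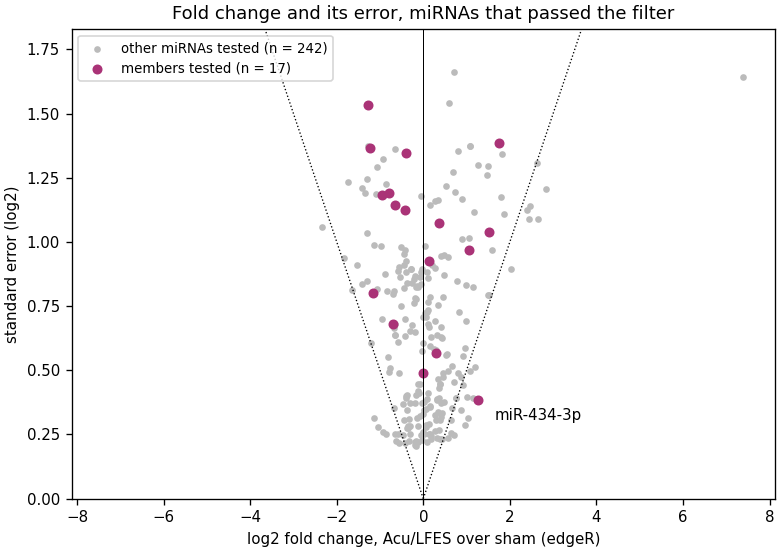
Log2 fold change in edgeR (x axis, Acu/LFES over sham) against its standard error (y axis) for the 259 miRNAs tested, with the 17 members in purple. Along the dotted lines the change is 2 standard errors, and miR-434-3p, at 1.27 with an error of 0.38, is the 1 member beyond them.

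The members summed to 890, 261 and 332 counts in sham mice and to 1926, 598 and 1762 in Acu/LFES mice. In normalized CPM the sums were 1286, 610 and 1099 in sham mice, compared with 1155, 1246 and 1611 after Acu/LFES. Sham mouse 1 was above 2 of the Acu/LFES mice, and the means of 998 ± 349 and 1337 ± 241 CPM (SD, n = 3 each) differed by less than the SD of the sham mice, a log2 ratio of 0.42. As a share of the deposited counts the members made up 0.142%, 0.0396% and 0.0848% in sham mice, against 0.128%, 0.0947% and 0.341% with Acu/LFES. The highest share was in Acu/LFES mouse 6, whose miR-486 share was lowest, and without that pair of red cell miRNAs the shares were 0.372%, 0.152% and 0.294% against 0.336%, 0.357% and 0.481%.

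Counts were concentrated in a few members, with 55.9% of all member counts in miR-434-3p, miR-382-5p, miR-127-3p, miR-541-5p and miR-485-3p. The miR-673 to miR-136 stretch held 46.0% of the member counts and summed to 482, 320 and 546 CPM in sham mice and 513, 625 and 787 CPM in Acu/LFES mice, a log2 ratio of 0.51. Without miR-434-3p this ratio was -0.019. The miR-379 to miR-410 stretch held 53.3% and summed to 803, 290 and 510 CPM in sham mice and 625, 621 and 824 CPM in Acu/LFES mice, a log2 ratio of 0.37. Both stretches overlapped between the groups.

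Both arms were among the members for 13 hairpins, and 6 of them had at least 10 counts over both arms in every mouse. One of the 6, miR-127, gave only its 3p arm and left no share to test, and the other 5 were tested. For miR-434 the 3p arm made up 100%, 100% and 98.0% of the hairpin's counts in the sham group and 96.6%, 86.6% and 90.9% after Acu/LFES. The groups did not overlap, and the means of 99.3% ± 1.18 and 91.4% ± 5.02 (SD, n = 3 each) differed by -7.96 percentage points (exact two-sided permutation p = 0.1, the smallest possible, and 0.5 adjusted over the 5 hairpins). The 5p arm thus held a larger share in each Acu/LFES mouse, where the 3p arm was also above its sham level. A sham share of 0 of 111 5p counts in mouse 1 and 0 of 42 in mouse 2 is set by few counts.

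For miR-136 the 3p arm was the lesser one, with 24.1% of 282 counts (95% exact interval 19.2 to 29.5), and for miR-382 it was 6.77% of 812 (5.14 to 8.73). For miR-337 it was 7.14% of 140 counts, of which 9 of 10 were in Acu/LFES mouse 4. None of these 3 shares differed beyond the spread between mice (exact permutation p = 0.8, 1 and 1, all 1 after adjustment). Where only 1 arm was seen, miR-127 gave 498 of 498 counts from its 3p arm (99.3 to 100%), miR-409 gave 221 of 221 from its 3p arm, and miR-379 gave 186 and miR-154 74 counts, all from the 5p arm. miR-411 gave 6 of 15 counts from its 3p arm in sham mice (40%, 16.3 to 67.7%), all 15 in sham mouse 1, and 14 of 195 in Acu/LFES mice (7.18%, 3.98 to 11.8%), a difference that was not tested since 2 sham mice held none. All 21 counts of miR-493 and 32 of 35 of miR-299a were from the 5p arm, while miR-369 had 8 counts of its 3p arm in Acu/LFES mouse 4 and 7 of its 5p arm in other mice. The dominant arm was the same in both groups for miR-136, miR-382, miR-337, miR-127, miR-409 and miR-379. For miR-411 the sham interval of 16.3 to 67.7% did not settle the dominant arm, while miR-493 had 0 counts in sham mice and miR-154 only 1.

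The arms of miR-485 differed between single libraries. Its 3p arm had 113, 0 and 40 counts and its 5p arm 0, 14 and 1 counts in the 3 sham mice. After Acu/LFES the 3p arm had 55, 57 and 78 counts and the 5p arm 0, 0 and 24. Sham mouse 2 thus held the 5p arm alone, while the 3p arm made up 97.6% or more in the other sham mice and 76.5% or more in the Acu/LFES mice, and the group means did not differ beyond this spread (exact permutation p = 0.7, n = 3 each).

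**Figure D5:**
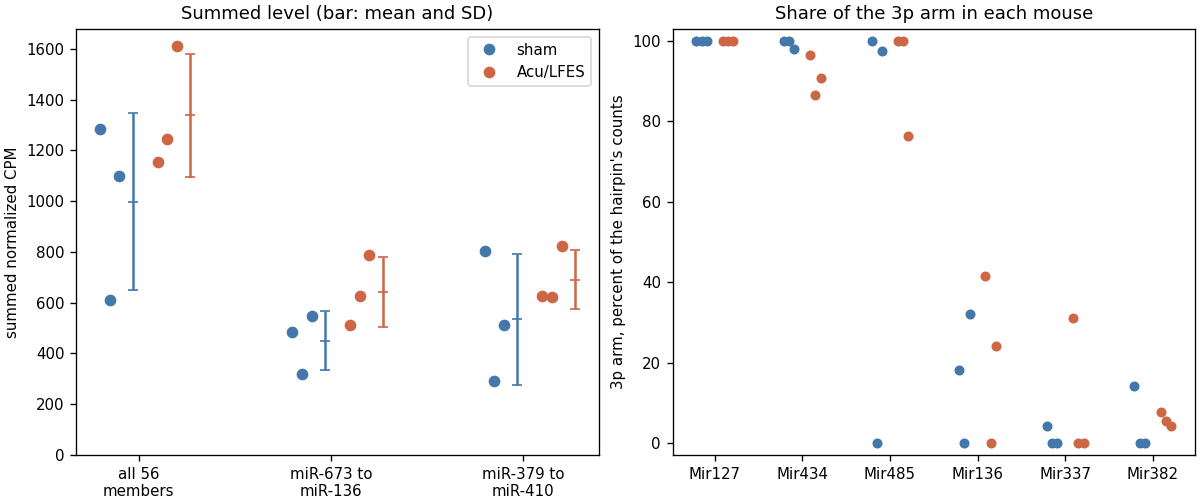
Left, summed normalized CPM of all members and of the larger sub-clusters in each mouse, with the mean and SD of 3 mice. Right, share of the 3p arm in the counts of 6 hairpins in each mouse, where miR-434 lies at 98.0% or more in sham and between 86.6% and 96.6% in Acu/LFES mice, miR-127 at 100% in all, and miR-485 at 0% in sham mouse 2.

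Absence from a single library was common among members of moderate level. Of the 10 members with at least 10 counts in both sham mice 1 and 3, 5 had 0 counts in sham mouse 2, namely miR-673-5p, miR-485-3p, miR-541-5p, miR-409-3p and miR-410-3p. For miR-485-3p this was 0 counts, allowing up to 7.01 CPM, between 113 and 40 counts in the other sham mice. Over all miRNAs with at least 10 counts in sham mice 1 and 3, 10 of 181 were at 0 in sham mouse 2 (5.52%), and these include more abundant miRNAs than the members.

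In sham mouse 3, 3 of 8 such members were at 0 (miR-134-5p, miR-431-5p and miR-668-3p), against 6 of 189 miRNAs (3.17%). In Acu/LFES mouse 5 it was 2 of 22 members (miR-136-3p and miR-493-5p), against 18 of 287 (6.27%), and in Acu/LFES mouse 6 it was 1 of 16 (miR-410-3p), against 8 of 239 (3.35%). No member was missing in this way from sham mouse 1 (of 5) or Acu/LFES mouse 4 (of 17). Shares were not matched for level, and the part of dropout in the detection counts was not tested.

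The cells that release these miRNAs cannot be read from the libraries, since fewer vesicles of a cell type and less RNA in each vesicle cannot be told apart in bulk exosomes. Of 7 neuronal miRNAs, 6 were detected, with miR-9-3p at 0 in every mouse, and their sum lay between 1817 and 2480 CPM in sham and between 1935 and 2429 CPM in Acu/LFES mice. Of 6 skeletal muscle miRNAs, 5 were detected, with miR-208b-3p at 0, and the sum lay between 10115 and 11285 CPM and between 7499 and 12478 CPM. Neither sum separated the groups.

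All 3 fibroblast miRNAs were detected, between 1169 and 2646 CPM in sham and between 1627 and 3360 CPM in Acu/LFES mice, and both liver miRNAs, between 10283 and 23672 CPM and between 4032 and 17905 CPM. All 5 platelet and white cell miRNAs lay between 6424 and 7845 CPM and between 5073 and 7067 CPM. All 6 red cell miRNAs were detected, between 565243 and 1148922 CPM in sham mice and between 147313 CPM in Acu/LFES mouse 6 and 974325 CPM in Acu/LFES mouse 5. Every one of these ranges overlapped between the groups, and the part of these cell types in the members' values was not tested.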

How the data were processed

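Small RNA of serum exosomes from 6 mice, 3 in each group, was sequenced with adapter-ligated, PCR-amplified libraries in a single lane. The authors deposited raw counts of reads per mature miRNA, without normalization. The submitters' processing notes name bcl2fastq, cutadapt 1.6 and DESeq2 1.26.0. The aligner, counter, miRNA annotation and mismatch rule are not given in the sources used here. The table lists 67 rows of other species, which stayed in the totals.

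From the deposited counts, edgeR 4.0.16 (R 4.3.3) filtered the whole table by filterByExpr with its defaults, computed TMM factors and ran its quasi-likelihood test on 259 miRNAs, with Benjamini-Hochberg adjustment and a threshold of 0.05. Each standard error comes from the F statistic. DESeq2 1.42.0 was run on the same rows. Expected detection at equal depth was computed from the hypergeometric distribution without random draws. Arm shares and ratios were compared by exact two-sided permutation over mice (scipy 1.17.1), pooled counts by exact intervals at 95%. The edgeR step was tested on simulated data. The labels do not say more of the replicates than that they are separate mice. Permutation p-values measure the spread between these 3 mice a group, and those of edgeR and DESeq2 also draw on the spread of the other miRNAs fitted. Figures were drawn with matplotlib 3.10.9.

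The members and marker lists were chosen with earlier results of these data known. The members named are those tested, those with more than 3 counts in every mouse of a group, the 5 with the most counts, both arms of hairpins with at least 10 counts on each arm, and those at 0 everywhere. miR-679-5p, miR-341-3p, miR-380-3p, miR-543-3p, miR-540-3p and single members named beside a small count were named after their values were seen.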

Additional observations from a re-analysis of the deposited data

How the results depend on the processing

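Other scalings, filters and tools were tried for the fitted fold changes, and other scalings or depths for the sums, the detection counts and the counts of members without overlap. Each mouse was left out in turn for these and the arm shares, and the ratios of miR-434-3p, pooled ratios and counts of zeros had no alternative. DESeq2 on the same miRNAs called 1 member (miR-434-3p) after adjustment where edgeR called 0. DESeq2 on all rows with a count, an alternative chosen after seeing the data, called 0 after adjustment. The number of members higher at an unadjusted p under 0.05 was 1 of 17, but 6 of 44 with no filter (over all miRNAs 4.09%), 8 of 27 with at least 5 counts in 3 libraries (7.80%) and 7 of 44 by DESeq2 on all rows (3.46%). It was 8 of 25, 5 of 24 and 4 of 25 without sham mouse 1, 2 or 3 (13.5%, 6.80% and 4.82% over all miRNAs) and 3 of 22, 3 of 22 and 2 of 19 without Acu/LFES mouse 4, 5 or 6 (5.21%, 7.84% and 4.80%), and no member was lower in any. miR-434-3p was among them each time, with a log2 fold change from 1.05 to 1.41 with a mouse left out.

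Scaling to total counts moved the median log2 fold change of all tested miRNAs from 0.05 to 0.71. It gave log2 ratios of the summed level of 1.08 for all members, 1.22 for miR-673 to miR-136 and 0.98 for miR-379 to miR-410. It left 0 members with every Acu/LFES mouse below every sham mouse, and 8 with every one above, where TMM gave 9. Shares over all miRNAs are not given for this scaling. It turned miR-127-3p to 0.67, miR-136-3p to 0.24 and miR-668-3p to 0.053. Relative to the shift of all miRNAs these 3 stayed below the median. With no filter miR-127-3p was at 0.030. The log2 ratio of miR-673 to miR-136 was -0.019 without miR-434-3p.

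With a mouse left out, the median of the tested members ran from -0.41 to 0.60, the log2 ratio of the sum from 0.17 to 0.65 for all members, from 0.32 to 0.68 for miR-673 to miR-136 and from 0.07 to 0.79 for miR-379 to miR-410, and the difference in members detected at equal depth from 9.24 to 15.2. With a mouse left out, also tried after seeing the data, 9 to 12 of the 44 members with a count had every Acu/LFES mouse above every sham mouse, against 7.65% to 13.5% of the 954 miRNAs, and 1 to 5 had every one below, 5 without sham mouse 2 (4.51% of all) and 2 without sham mouse 3 (5.14%) or Acu/LFES mouse 5 (5.03%). Leaving out a mouse turned the sign for miR-433-3p (-0.31 to 0.79), miR-127-3p (-0.22 to 0.25), miR-136-3p (-1.27 to 0.20), miR-382-5p (-0.28 to 0.70), miR-134-5p (-1.34 to 0.70), miR-668-3p (-1.73 to 0.029), miR-485-3p (-1.03 to 0.15) and miR-541-5p (-0.21 to 0.98), so that none of these has a direction here. Sham mouse 1 most moved miR-300-3p, whose log2 fold change ran from 1.19 to 2.25 with another mouse left out, and miR-379-5p (0.60 to 2.49). For miR-431-5p it ran from 1.03 to 2.26, for miR-673-5p from -1.85 to -0.68, for miR-337-5p from -1.39 to -0.74, for miR-136-5p from -0.94 to -0.44, for miR-409-3p from -1.23 to -0.09 and for miR-410-3p from -2.75 to -0.22. Where a scaling or a left-out mouse moved a value, the cause was not tested. No paired analysis was possible because the mouse numbers are not shared between the groups. Depth limits all members but the 6 with more than 3 counts in every mouse.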

Other observations

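By RefSeq the region holds another 53 mature miRNAs in the table that are not among the 56 members, mostly the other arms of the same hairpins. Of these, 14 had a count, with 84 counts in all, 14 in sham and 70 in Acu/LFES mice. The highest count in a mouse was 15, and 0 of the 53 had more than 3 counts in every mouse of a group. Both arms of miR-3072 and miR-770 and miR-539-3p were not placed there by RefSeq and are not among the 53. Of them, miR-3072-3p had 7 counts, all in Acu/LFES mouse 6, and miR-770-3p had 1 count, in Acu/LFES mouse 4.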
